A study of Mus musculus with 35 samples.

Results

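Interferons are secreted proteins that cells release on sensing viral nucleic acid or immune signals. They act through cell surface receptors, JAK kinases and STAT proteins to switch on many interferon-stimulated genes. Type I interferons mainly act through a complex that holds STAT2 and IRF9, and IRF1 takes part in the response to interferon gamma. The response includes proteins that block viral growth, chemokines that draw T cells, and the machinery that cuts proteins into peptides and displays them on MHC molecules. In liver, hepatocytes, Kupffer cells (the resident macrophages) and sinusoidal endothelial cells all respond to interferon, and MHC class II display is mainly a task of macrophages, dendritic cells and B cells.

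Messenger RNA of a set of 39 listed genes of this response was followed in mouse liver after inhaled styrene. The list names genes by function, from regulators through antiviral effectors to antigen presentation. A gene was measured where a probe set of the array named that gene alone, and the brightest such probe set over all arrays stood for the gene. By this rule 33 of the 39 genes were measured, out of 17097 genes with a probe set of their own. The other 6 (Isg15, Ifi44, Bst2, Tap1, Tap2 and B2m) had no such probe set and are not analysed here.

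The samples were livers of 35 adult male wild-type C57Bl/6 mice, with 1 array per liver. Each mouse was exposed once for 6 h, in a cage of its own, to clean air or to styrene vapour at 1, 5, 10, 20, 40 or 120 ppm, and was killed with sodium pentobarbital and exsanguination on the following morning. Each of the 7 groups held 5 mice. Whole liver was extracted, so fewer cells of a type and less RNA per cell cannot be told apart. Values are log2 signals of the authors' normalized table, so a difference of 1 is a factor of 2; levels of different genes are not compared, because probe sets differ in how brightly they bind.

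In these livers some of the interferon response genes were lower than in air at the higher concentrations. No member passed the test as higher on the probe set that stood for it. At 120 ppm, 11 of the 33 measured genes were lower than in air at an adjusted p under 0.05 and 0 were higher. Over all 17097 genes, 7.99% were lower and 11.2% were higher at 120 ppm by the same criterion. The members, and the lists used further on, were chosen with earlier results of these data known. Such counts beside the share of all genes describe the lists and are not independent evidence. The 11 were Irf7, Irf9, Stat2, Oasl2, Ifi35, Cxcl9, Cxcl10, Psmb9, Psme2, Tapbp and Cd74. The falls were mostly modest: 3 of the 11 (Cxcl9, Cxcl10 and Cd74) reached 1.5-fold, a size and call that 1.83% of all genes met in the same direction. None of the Ifit genes or of the interferon-induced GTPases passed. In the same livers 6 of 11 Kupffer cell markers were lower at 120 ppm, as given further on, and their part in these falls was not tested.

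**Figure D1:**
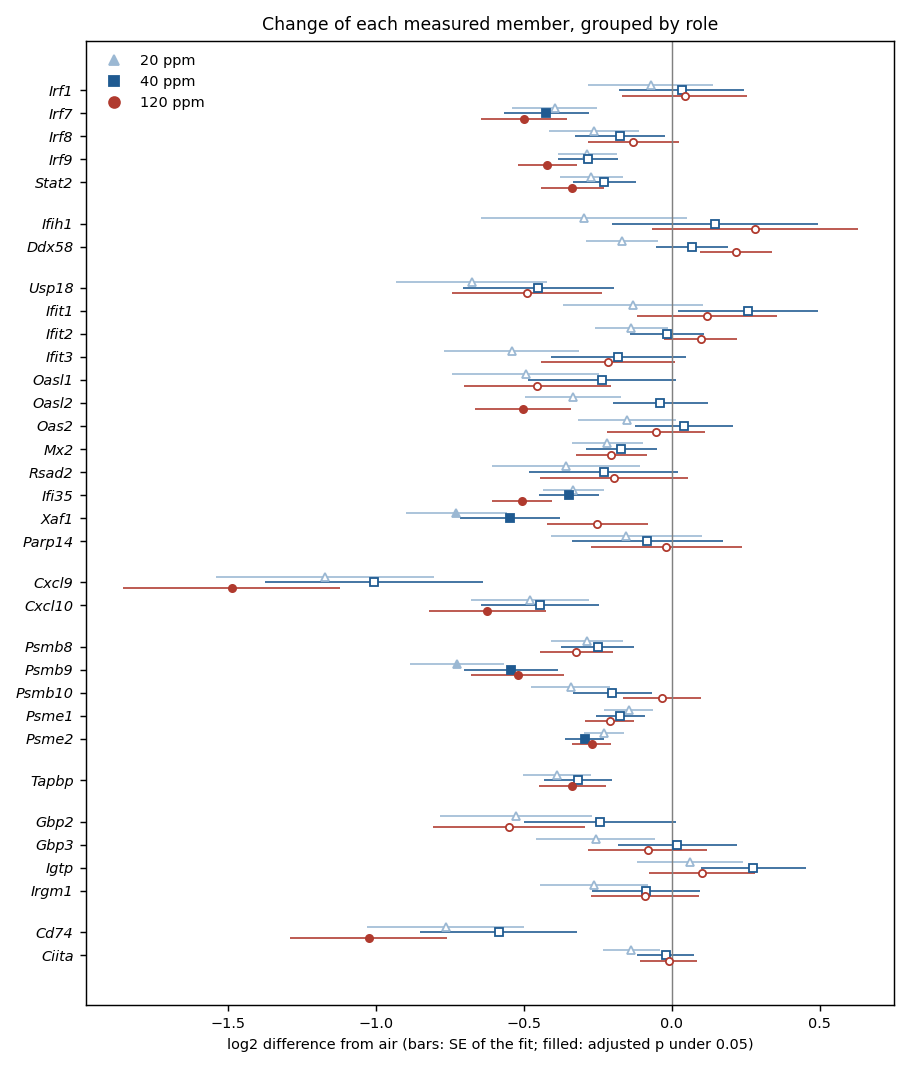
Log2 difference from air (x axis) of each of the 33 measured genes at 20, 40 and 120 ppm, in blocks by role from regulators (top) to class II presentation (bottom); bars are the standard error of the fit and filled symbols have an adjusted p under 0.05. All filled symbols lie to the left of 0, and Cxcl9 at 120 ppm lies farthest left, at -1.49.

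The array measures transcripts, and the stretch just upstream of a gene is where interferon-activated factors bind in many genes of this response. Promoter sequence from RefSeq (GRCm38.p6) was matched by symbol for 32 of the 39 listed genes, and the 250 bases before the transcription start were searched on both strands. The letters searched were GAAA followed by any 2 bases and again by GAAA, a core of the interferon-stimulated response element bound by the complex with STAT2 and IRF9, and TTCNNNGAA, the gamma-activated site. The same windows of all 32851 promoters in the table held the first motif in 2.98% and the second in 7.02%. At least 1 promoter of a gene held the first motif in 12 of the 32 genes and the second in 6 of them. Of the 10 genes lower at 120 ppm that had a promoter entry, 2 (Stat2 and Cxcl10) held the first motif and 0 the second. Among the 17 measured genes with a promoter entry that did not pass, 7 held the first motif and 5 the second. A match is a description of letters and not a binding site, and the windows do not cover more distant elements.

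The 5 windows below belong to genes at both ends of the response: Cxcl10 and Cxcl9 (the chemokines that fell), Psmb9 (lower at 20, 40 and 120 ppm), and Ifit3 and Igtp (motifs present, no call). They lie at chr5:92348890-92349139 on the minus strand for Cxcl10, chr5:92328080-92328329 on the minus strand for Cxcl9, chr17:34187331-34187580 on the minus strand for Psmb9, chr19:34583279-34583528 on the plus strand for Ifit3 and chr11:58199306-58199555 on the plus strand for Igtp. Each is written 5′ to 3′ along its gene and ends at the base before the start; capitals mark the matches to the motifs.
Cxcl10: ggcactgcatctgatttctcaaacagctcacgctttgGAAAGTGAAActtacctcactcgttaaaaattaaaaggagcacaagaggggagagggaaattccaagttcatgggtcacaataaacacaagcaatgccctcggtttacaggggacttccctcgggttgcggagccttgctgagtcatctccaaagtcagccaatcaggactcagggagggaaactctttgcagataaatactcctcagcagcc
Cxcl9: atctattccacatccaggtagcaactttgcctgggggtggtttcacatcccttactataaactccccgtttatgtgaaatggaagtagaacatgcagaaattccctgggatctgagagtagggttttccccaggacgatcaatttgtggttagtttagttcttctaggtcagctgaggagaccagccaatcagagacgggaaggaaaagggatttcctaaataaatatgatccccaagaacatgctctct
Psmb9: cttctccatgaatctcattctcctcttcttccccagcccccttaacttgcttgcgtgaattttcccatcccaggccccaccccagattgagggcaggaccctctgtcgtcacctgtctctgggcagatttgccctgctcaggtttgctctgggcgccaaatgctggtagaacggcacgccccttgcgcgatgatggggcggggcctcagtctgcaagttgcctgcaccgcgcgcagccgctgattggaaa
Ifit3: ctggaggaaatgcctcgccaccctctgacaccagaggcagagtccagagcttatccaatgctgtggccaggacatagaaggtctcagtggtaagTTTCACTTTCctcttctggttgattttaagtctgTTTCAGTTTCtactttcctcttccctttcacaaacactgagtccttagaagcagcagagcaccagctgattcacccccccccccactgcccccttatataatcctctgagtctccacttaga
Igtp: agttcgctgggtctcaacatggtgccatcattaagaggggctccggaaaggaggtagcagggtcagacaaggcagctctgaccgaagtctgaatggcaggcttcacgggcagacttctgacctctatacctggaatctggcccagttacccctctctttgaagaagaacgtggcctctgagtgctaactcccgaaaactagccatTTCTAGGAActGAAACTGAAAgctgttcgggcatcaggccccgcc
In Cxcl10 the match began 213 bases before the start. Ifit3 had a pair of matches to the first motif, 156 and 122 bases before the start, and Igtp had both motifs within its last 45 bases. No match to either motif was found in the windows of Cxcl9 and Psmb9. The Psmb9 and Tap1 promoter entries, which run a little past the start, are on opposite strands and share 275 bases.

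The regulators are the transcription factors that carry the interferon signal to the genome. Of 5 measured regulators, 3 were lower at 120 ppm, beside 7.99% of all genes. Irf7, the factor that amplifies type I interferon production, read 7.03, 6.72, 6.89, 6.73 and 7.05 in the air mice and 6.32, 6.15, 6.41, 6.53 and 6.51 at 120 ppm. The groups did not overlap. Irf7 fell by 0.50 ± 0.14 on the log2 scale (SE; 5 mice per group; limma adjusted p = 0.0151). It was also lower at 40 ppm, by 0.42 ± 0.14 (adjusted p = 0.0443 in limma), and at 20 ppm its difference of -0.40 ± 0.14 did not pass (adjusted p = 0.208). At 1, 5 and 10 ppm its differences from air were -0.25, 0.10 and 0.03.

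Irf9, the DNA-binding subunit of the type I interferon factor, read 7.05, 7.46, 7.39, 7.40 and 7.50 in air and 6.79, 6.99, 7.02, 6.89 and 7.00 at 120 ppm. Every mouse at 120 ppm was below every air mouse, although the lowest air mouse, at 7.05, stood well below the other 4. The fall was 0.42 ± 0.10 (adjusted p = 0.00395 in limma). At 40 ppm the difference of -0.28 ± 0.10 missed the threshold (adjusted p = 0.0527). Stat2, the partner of Irf9 in that factor, ranged from 6.40 to 6.58 in air and from 6.02 to 6.36 at 120 ppm, without overlap. Stat2 fell by 0.34 ± 0.11 (adjusted p = 0.0249 in limma). A second Stat2 probe set of similar brightness gave -0.01 ± 0.17 (adjusted p = 0.988), so the array's own readings of this gene disagree. The call for Stat2 also ended when air replicate 2 or 4 or 120 ppm replicate 1, 2 or 5 was left out.

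Irf1 and Irf8, which act in the interferon gamma response and in macrophages, showed no difference that passed. Irf1 was at 7.25 ± 0.42 in air and 7.29 ± 0.52 at 120 ppm (SD, n = 5 each), with 1 mouse at 6.39 against 7.29 to 7.65 in the other 4. Irf8 differed from air by -0.13 ± 0.15 at 120 ppm. The RNA sensors Ifih1 (MDA5) and Ddx58 (RIG-I), which detect viral RNA in the cytosol, had positive differences at 120 ppm, of 0.28 ± 0.35 and 0.22 ± 0.12, that did not pass (adjusted p = 0.602 and 0.205 in limma). The spread in Ifih1 was wide at 5 ppm, where 1 mouse read 3.61, and at 10 ppm, where 1 mouse read 3.80.

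Among the 12 measured antiviral effectors, Oasl2 and Ifi35 were lower at 120 ppm, beside 7.99% of all genes, and no other passed there. Ifi35, an interferon-induced leucine zipper protein, read 7.81, 8.05, 7.99, 7.91 and 7.84 in the air mice. At 40 ppm it read 7.63, 7.67, 7.53, 7.56 and 7.47, and at 120 ppm 7.38, 7.59, 7.52, 7.09 and 7.49. Both exposed groups lay below all air mice. Ifi35 was lower by 0.35 ± 0.10 at 40 ppm (adjusted p = 0.0211) and by 0.51 ± 0.10 at 120 ppm (adjusted p = 0.00103 in limma).

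Oasl2, a relative of the 2′-5′ oligoadenylate synthetases, was dim on the array. It read 3.62, 4.01, 3.70, 4.25 and 4.49 in air and 3.46, 3.45, 3.81, 3.36 and 3.47 at 120 ppm, so the highest exposed mouse exceeded the 2 lowest air mice. Its fall of 0.50 ± 0.16 (adjusted p = 0.0273 in limma) ended when any of air replicates 4 and 5 and 120 ppm replicates 1, 2 and 4 was left out, with adjusted p up to 0.0956. At 40 ppm Oasl2 was within 0.04 of air.

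Xaf1, a pro-apoptotic interferon target, was lower at the middle concentrations and not at the top. Its mean was 5.71 ± 0.37 in the air mice (SD, n = 5). The 20 ppm mice averaged 4.98 ± 0.39, the 40 ppm mice 5.16 ± 0.23 and the 120 ppm mice 5.46 ± 0.15. The falls at 20 ppm (0.73 ± 0.17) and 40 ppm (0.55 ± 0.17) both passed (adjusted p = 0.0276 for each in limma). The difference at 120 ppm was -0.25 ± 0.17 (adjusted p = 0.304), and the contrast of 120 against 40 ppm, 0.29 ± 0.17, did not pass. A second, very dim Xaf1 probe set gave 0.26 ± 0.11 at 120 ppm (adjusted p = 0.0858).

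The remaining 9 effectors did not pass at any concentration. Usp18, the protease that removes ISG15 from proteins and restrains interferon receptor signalling, had the most negative values among them: -0.68 ± 0.25 at 20 ppm, -0.45 ± 0.25 at 40 ppm and -0.49 ± 0.25 at 120 ppm, with adjusted p no lower than 0.173. Oasl1, another synthetase relative, differed by -0.45 ± 0.25 at 120 ppm (adjusted p = 0.197 in limma). Ifit1, Ifit2 and Ifit3, which bind viral RNA, differed by 0.12 ± 0.24, 0.10 ± 0.12 and -0.22 ± 0.23 at 120 ppm. Rsad2 (viperin), Mx2, Oas2 and Parp14, which act against viruses by different routes, lay between -0.21 and -0.02 there. The difference in Usp18 at 120 ppm was close to that in Ifi35, which passed with a standard error of 0.10 against 0.25 in Usp18. Mx2 passed at 120 ppm in 1 alternative, a repeated quantile normalization (-0.39, adjusted p = 0.0167 in limma).

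The chemokine Cxcl9 had the largest change from air of any member at 20, 40 and 120 ppm. CXCL9 and CXCL10 are interferon gamma-inducible ligands of CXCR3 that attract activated T cells and NK cells. Cxcl9 read 6.39, 6.79, 6.70, 6.89 and 8.57 in air and 4.99, 4.84, 5.87, 6.20 and 5.99 at 120 ppm. All exposed mice were below all air mice, and 1 air mouse stood far above the rest. Cxcl9 fell by 1.49 ± 0.37 on the log2 scale, 2.81-fold (adjusted p = 0.00508 in limma). Without that air mouse (replicate 5) the fall was 1.11 (adjusted p = 0.0226). At 20 and 40 ppm the differences were -1.17 ± 0.37 (adjusted p = 0.118) and -1.01 ± 0.37 (adjusted p = 0.0602), and neither passed.

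Cxcl10 read 3.89, 4.02, 4.00, 4.26 and 5.06 in air and 3.63, 3.48, 3.59, 3.61 and 3.80 at 120 ppm, again without overlap and with air replicate 5 on top. It fell by 0.62 ± 0.20, 1.54-fold (adjusted p = 0.0258 in limma). Without air replicate 5 the value was -0.42 and did not pass (adjusted p = 0.109), and it did not pass without 120 ppm replicate 2 (adjusted p = 0.0546). Cxcl10 was dim at all concentrations, with group means between 3.62 and 4.28.

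The immunoproteasome replaces standard catalytic subunits under interferon and makes peptides suited to MHC class I. All 5 measured members had negative differences at 20, 40 and 120 ppm, and Psmb9 and Psme2 passed. These 2 of 5 were lower at 40 and 120 ppm, beside 6.24% and 7.99% of all genes. Psmb9 (LMP2), a catalytic subunit, read 7.49, 8.05, 7.90, 7.82 and 8.07 in the air mice. It read 7.34, 6.74, 7.63, 7.07 and 6.93 at 20 ppm, and at 120 ppm 7.52, 7.36, 7.43, 6.93 and 7.48. The lowest air mouse lay within the exposed range, and the other 4 lay above all these exposed mice. It was lower by 0.73 ± 0.16 at 20 ppm (adjusted p = 0.0187), 0.54 ± 0.16 at 40 ppm (adjusted p = 0.0191) and 0.52 ± 0.16 at 120 ppm (adjusted p = 0.0197 in limma). A second Psmb9 probe set fell by 0.59 ± 0.15 at 120 ppm (adjusted p = 0.0075). On the main probe set the 120 ppm call ended without air replicate 2 (adjusted p = 0.0516) or 120 ppm replicate 4 (adjusted p = 0.0738).

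Psme2 (PA28 beta), a subunit of the proteasome activator, changed little but with small spread. It read 9.87, 9.98, 9.92, 9.85 and 9.94 in air and 9.63, 9.71, 9.58, 9.61 and 9.69 at 120 ppm, with no overlap. The fall was 0.30 ± 0.07 at 40 ppm (adjusted p = 0.00327) and 0.27 ± 0.07 at 120 ppm (adjusted p = 0.005 in limma). At 1, 5 and 10 ppm Psme2 differed by -0.17, -0.15 and -0.19 ± 0.07, which did not pass (adjusted p = 0.821, 0.598 and 0.58).

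Psmb8 (LMP7), another catalytic subunit, differed by -0.32 ± 0.12 at 120 ppm and missed the threshold (adjusted p = 0.0599), while its slope over concentration passed. It was called at 120 ppm with centred arrays, repeated quantile normalization, array weights, the 2 groups alone, or without air replicate 1, at adjusted p from 0.0166 to 0.0477. A second, dim Psmb8 probe set gave 0.02 ± 0.11 at 120 ppm (adjusted p = 0.93 in limma). Psme1 (PA28 alpha) differed by -0.21 ± 0.08 at 120 ppm (adjusted p = 0.0683). It was called there with centred arrays (adjusted p = 0.00886), array weights (adjusted p = 0.0487) and without air replicate 5 and 20 ppm replicate 2 (adjusted p = 0.0475). Its largest difference from air was at 1 ppm, -0.30 ± 0.08, which did not pass (adjusted p = 0.446 in limma). At 5 and 10 ppm Psme1 differed by -0.06 and -0.05. Psmb10 (MECL-1), the third inducible catalytic subunit, differed by -0.34 ± 0.13 at 20 ppm and -0.03 ± 0.13 at 120 ppm, and neither passed. Of the standard catalytic subunits, their assembly factor Pomp and the activators Psme3 and Psme4, listed for comparison, 5 of 6 genes were measured. Of these, 3 were lower at 40 ppm, beside 6.24% of all genes. At 120 ppm 1 was lower, Psmb5, by 0.28 ± 0.07 (adjusted p = 0.00554 in limma), beside 7.99%. Psmb6 and Pomp, the others that differed among the groups, were lower at 40 ppm by 0.28 ± 0.08 and 0.25 ± 0.07.

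Tapbp (tapasin), which holds class I molecules at the peptide transporter while they are loaded, was the only measured member of the class I loading step. It read 10.03, 10.19, 10.23, 10.19 and 10.38 in air and 9.83, 9.86, 9.93, 9.80 and 9.92 at 120 ppm, without overlap. Tapbp fell by 0.34 ± 0.11 (adjusted p = 0.0357 in limma). One mouse at 20 ppm read 9.16, below all other mice. The call at 120 ppm was fragile: leaving out any single one of air mice 2, 3, 4 and 5 or 120 ppm mice 1, 2 and 4 ended it, at an adjusted p between 0.0546 and 0.0881. A dimmer Tapbp probe set gave -0.17 ± 0.09 (adjusted p = 0.191).

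The interferon-induced GTPases attack the membranes around intracellular microbes, and none of the 4 measured passed at any concentration in the fit over all mice. Gbp2 had the most negative value at 120 ppm, -0.55 ± 0.26 (adjusted p = 0.126 in limma). Its air mice ranged from 4.24 to 6.34, the highest being replicate 5, and without that mouse the difference was -0.23. Gbp2 did pass at 120 ppm without air replicate 1 (-0.75, adjusted p = 0.04) and with a repeated quantile normalization (-0.72, adjusted p = 0.0378 in limma). In the fit over all mice Gbp2 differed by -0.46, -0.75, -0.43, -0.53 and -0.24 at 1, 5, 10, 20 and 40 ppm. Its differences thus did not grow with concentration. Gbp3 and Irgm1 differed by -0.08 ± 0.20 and -0.09 ± 0.18 at 120 ppm. Igtp (Irgm3) stood at 8.28 ± 0.35 in air and 8.38 ± 0.28 at 120 ppm (SD, n = 5), and it was the 1 member with a positive difference at 20 ppm, 0.06 ± 0.18.

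Cd74, the invariant chain that guides MHC class II molecules to the compartment where they take up peptide, fell at 120 ppm. It read 6.35, 6.88, 7.09, 7.42 and 7.88 in air and 6.07, 5.97, 5.84, 6.29 and 6.32 at 120 ppm. The 5 exposed mice lay close together and below every air mouse, though the highest exposed and lowest air mice differed by a small margin. Cd74 fell by 1.02 ± 0.27, 2.03-fold (adjusted p = 0.00717 in limma), and by 0.83 without air replicate 5 (adjusted p = 0.0284). Over the same mice the mean level of 11 Kupffer cell markers was 7.29 ± 0.41 in air and 6.77 ± 0.22 at 120 ppm (SD, n = 5). At 20 and 40 ppm the Cd74 differences of -0.76 ± 0.27 and -0.59 ± 0.27 did not pass (adjusted p = 0.176 and 0.135). Ciita, the master regulator of class II genes, was near the dim end of the array, at 2.97 ± 0.16 in air and 2.96 ± 0.20 at 120 ppm. A dimmer Ciita probe set, at a mean of 2.51, gave 0.31 ± 0.09 at 120 ppm (adjusted p = 0.0173), against -0.01 ± 0.10 on the main one. At 40 ppm the dimmer one gave 0.34 ± 0.09 (adjusted p = 0.0118 in limma), against -0.02 ± 0.10.

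**Figure D2:**
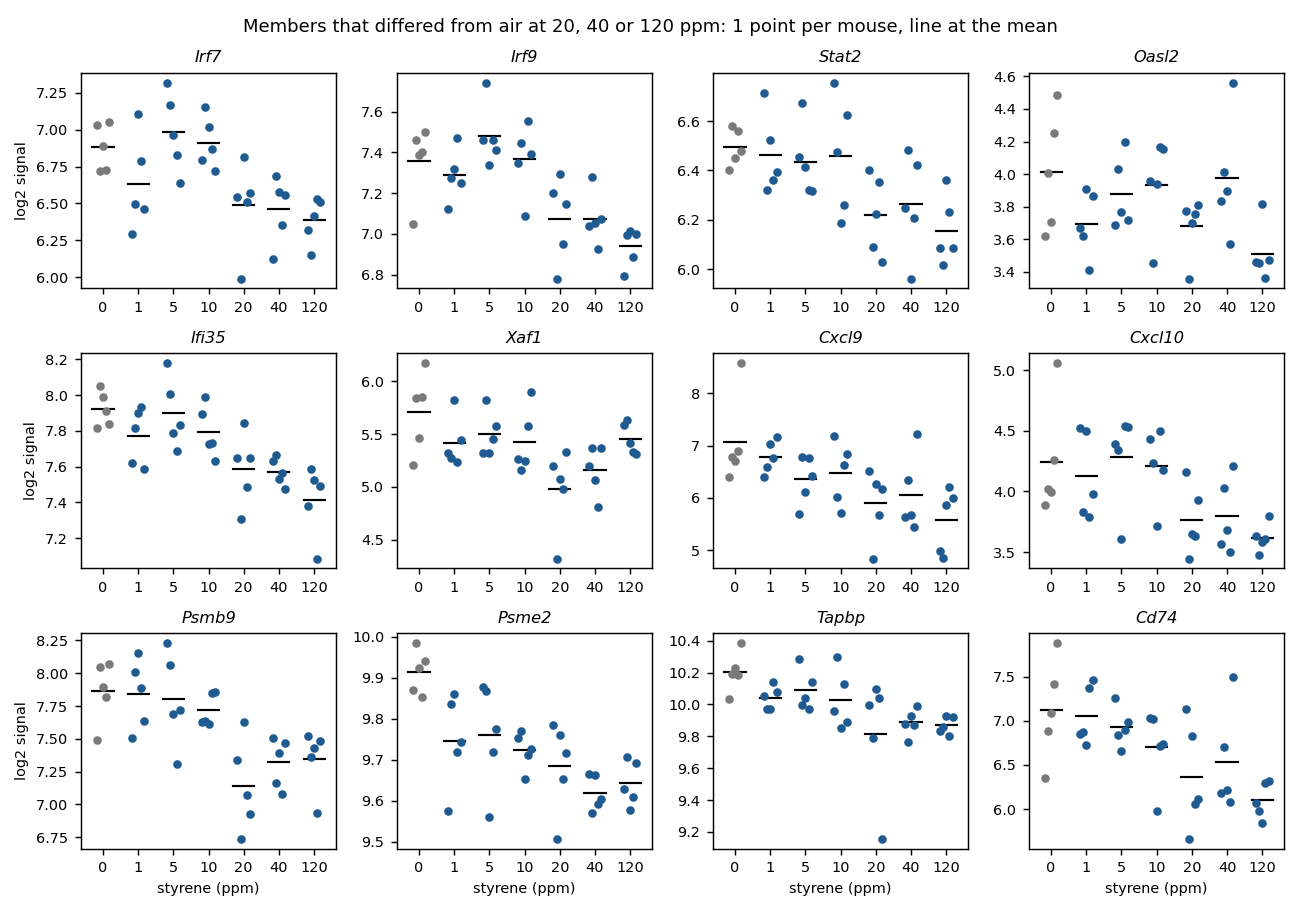
Log2 signal (y axis, scaled per gene) of the 12 genes that differed from air at 20, 40 or 120 ppm, against styrene concentration (x axis, 0 is air, groups evenly spaced); each point is 1 mouse (grey for air, blue for styrene) and each line a group mean. Cxcl9 falls from a mean of 7.07 in air to 5.58 at 120 ppm, and Xaf1 is lowest at 20 ppm.

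Across concentrations, no member passed at 1, 5 or 10 ppm in limma. Over all genes 0% and 0.0526% passed at 1 and 5 ppm. At 20 ppm 2 members were lower (Xaf1 and Psmb9), beside 0.959% of all genes. At 40 ppm 5 were lower (Irf7, Ifi35, Xaf1, Psmb9 and Psme2), beside 6.24% of all genes; 0 members were higher, beside 8.74%. Irf7, Ifi35, Psmb9 and Psme2 passed at both 40 and 120 ppm.

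The direct contrast of 120 against 40 ppm called 0 members and 0.0409% of all genes. Oasl2 had the most different values there, -0.46 ± 0.16 (adjusted p = 0.696 in limma). So a gene lower at 120 and not at 40 ppm was not shown to differ between them. These comparisons with air share the same 5 air mice.

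The slope on log2(ppm + 1), fitted over all 35 mice, was downward for 11 members and upward for 0; over all genes 12.9% were downward and 20.1% upward. The 11 were Irf7, Irf9, Stat2, Ifi35, Cxcl9, Cxcl10, Psmb8, Psmb9, Psme2, Tapbp and Cd74. These counts rest on the main probe sets. Very dim other probe sets of Ciita and Xaf1 sloped upward, by 0.05 ± 0.01 and 0.04 ± 0.01 (adjusted p = 0.00207 and 0.0288 in limma). Cxcl9 had the steepest slope, -0.21 ± 0.04 log2 units per unit of log2(ppm + 1) (adjusted p = 0.000375 in limma), and Ifi35 the smallest adjusted p, 0.000118 with -0.07 ± 0.01. The F test for any difference among the 7 groups passed for 9 members and for 21.5% of all genes. Those 9 were Irf7, Irf9, Ifi35, Xaf1, Cxcl9, Cxcl10, Psmb9, Psme2 and Cd74. Leaving out single mice ended the F test call of Xaf1 (air replicate 2, 4 or 5 or 20 ppm replicate 2 or 4), of Psme2 (air replicate 2), of Cxcl9 (120 ppm replicate 1 or 2) and of Cd74 (120 ppm replicate 3). For Cxcl10 the omission of any of several mice at 5, 20, 40 and 120 ppm did so, with adjusted p up to 0.0688. The slope calls of Stat2 and Psmb8 ended with the mean over probe sets (adjusted p = 0.0755 and 0.165), and that of Tapbp with ppm not log-transformed (adjusted p = 0.0729).

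Signs of the differences, whatever their test, were also counted. At 20 ppm 32 of the 33 members were below air, with a median of -0.29, beside 49.4% of all genes and a median of 0.00. At 120 ppm 27 of 33 were below air with a median of -0.22, beside 44.4% and 0.04. At 40 ppm the count was 26 of 33 with a median of -0.20, beside 45.7% and 0.02. The members move together from mouse to mouse, so these counts are not independent evidence. For 9 of 33 members all 5 mice at 120 ppm lay below all 5 air mice, a pattern found in 6.14% of all genes; at 40 ppm there were 4 such members, beside 5.54% of all genes.

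The mice did not weigh equally. Air replicate 5 was the highest of its group for 23 of the 33 members, and 20 ppm replicate 2 the lowest of its group for 24. The mean over the members lay 0.37 above the air mean in the first and 0.69 below it in the second. The other air mice lay between 0.14 and 0.04 below the air mean, and the other 20 ppm mice between 0.34 and 0.14 below it. The 40 ppm mice ran from 0.46 below (replicate 4, the lowest of its group for 20 members) to 0.04 above (replicate 5). At 120 ppm the 5 mice lay between 0.37 and 0.16 below. With air replicate 5 and 20 ppm replicate 2 left out, 0 members were lower at 20 ppm, 3 at 40 ppm and 9 at 120 ppm, while the slope kept its count of 11. Negative differences then numbered 30, 21 and 22 of 33 members at 20, 40 and 120 ppm, with medians of -0.16, -0.14 and -0.18, beside 47.7%, 45.8% and 44.3% of all genes.

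**Figure D3:**
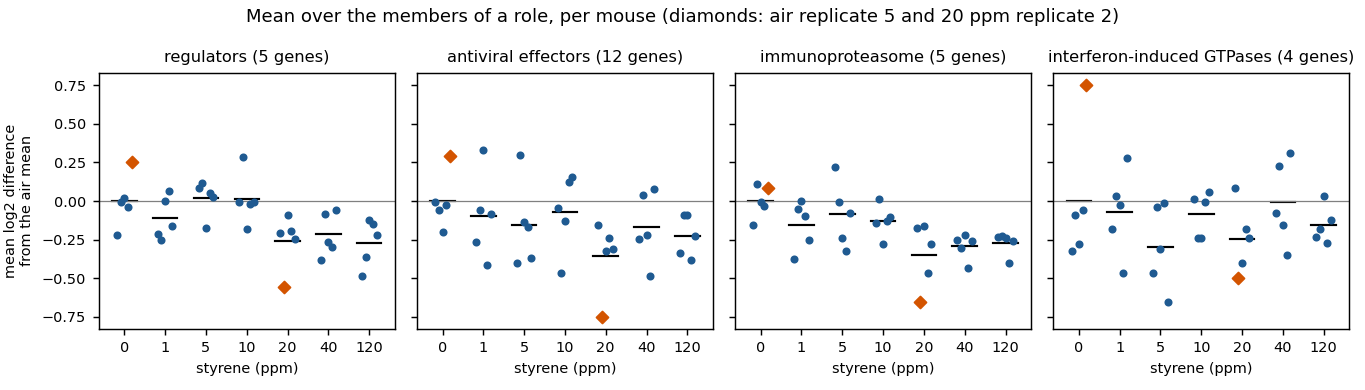
Mean log2 difference from the air mean (y axis) over the measured members of 4 roles, per mouse, against styrene concentration (x axis, 0 is air); lines are group means and diamonds mark air replicate 5 and 20 ppm replicate 2. These mice lie at the top of air and at the bottom of 20 ppm in most panels. For the regulators and the immunoproteasome all mice at 20, 40 and 120 ppm lie below 0. For the antiviral effectors all mice at 20 and 120 ppm do.

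Single mice also decided calls at the middle concentrations. At 20 ppm the Xaf1 call ended without air replicate 2, 4 or 5 or 20 ppm replicate 2 or 4. The Psmb9 call there ended without air replicate 2 or 3 or 20 ppm replicate 2, 4 or 5. At 40 ppm Irf7 lost its call without air replicate 1, 3 or 5 or 40 ppm replicate 1, 3, 4 or 5. Xaf1 lost it without air replicate 2, 4 or 5 or 40 ppm replicate 3 or 4, Ifi35 without air replicate 2 or 3 or 40 ppm replicate 5, and Psmb9 without air replicate 2 or 40 ppm replicate 4. Psme2 kept its 40 ppm call whichever single mouse was left out. Both Xaf1 calls also ended with the mean over its probe sets, and both 20 ppm calls ended when the fit held only the 20 ppm and air mice. Without 120 ppm replicate 2 the count at 120 ppm was 7 in place of 11. At 120 ppm Irf7, Irf9, Ifi35, Cxcl9, Psme2 and Cd74 kept their calls in all 19 alternative settings.

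Other genes of the pathway were listed in 6 groups, of which 88 of 99 genes were measured. At 120 ppm 19 of these were lower and 4 higher, beside 7.99% and 11.2% of all genes. The ligands themselves were near the dim end: Ifnb1 and Ifng, named here outside the rule for named genes, had means of 2.57 and 2.66 and did not pass at 120 ppm (adjusted p = 0.15 and 0.663 in limma). Of 17 measured genes of ligands, receptors and signalling, Ifnb1 and Ifng among them, 2 were lower and 2 higher at 120 ppm. Irf5, a macrophage interferon regulatory factor, fell by 0.63 ± 0.18 (adjusted p = 0.0155) and Irf2bp2, a corepressor partner of IRF2, by 1.27 ± 0.29 (adjusted p = 0.00272). The Irf5 call ended without 120 ppm replicate 1 (adjusted p = 0.0509 in limma). Pias1, a SUMO ligase that restrains cytokine signalling, rose by 0.62 ± 0.14 (adjusted p = 0.00278). Ifnar2, a chain of the type I interferon receptor, rose by 0.27 ± 0.07 (adjusted p = 0.011); centring the arrays on their medians ended that call (adjusted p = 0.106) and the mean over its probe sets was -0.12.

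Of 11 measured genes of nucleic acid sensing, 1 was lower at 120 ppm, beside 7.99% of all genes. This was Dhx58 (LGP2), the regulator of the RNA sensors, which ranged from 6.41 to 6.98 in air and from 5.94 to 6.24 at 120 ppm without overlap. It fell by 0.54 ± 0.17 (adjusted p = 0.0232 in limma), a call that ended without air replicate 2 or 120 ppm replicate 4.

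Of 34 other measured interferon-stimulated genes, 7 were lower and 2 higher at 120 ppm, beside 7.99% and 11.2% of all genes. Ifi27, a mitochondrial interferon-induced protein, read 9.43, 9.88, 9.88, 9.57 and 9.39 in air and 8.77, 8.73, 8.92, 8.96 and 8.99 at 120 ppm, with a wide gap. It fell by 0.76 ± 0.11 (adjusted p = 2.47e-05 in limma). Ube2l6, the conjugating enzyme for ISG15, fell by 0.65 ± 0.15 and Oas1g, an oligoadenylate synthetase, by 0.61 ± 0.14.

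Cxcl11, the third CXCR3 ligand, went the other way from Cxcl9 and Cxcl10. It read 3.34, 3.57, 3.33, 4.01 and 3.68 in air and 4.29, 4.48, 4.37, 4.71 and 4.52 at 120 ppm, with every exposed mouse above every air mouse. It rose by 0.89 ± 0.17 at 120 ppm (adjusted p = 0.000707) and by 0.97 ± 0.17 at 40 ppm (adjusted p = 0.000374 in limma). Cxcl11 was dim in all groups, and the difference between its change and that of Cxcl9 was not tested.

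**Figure D4:**
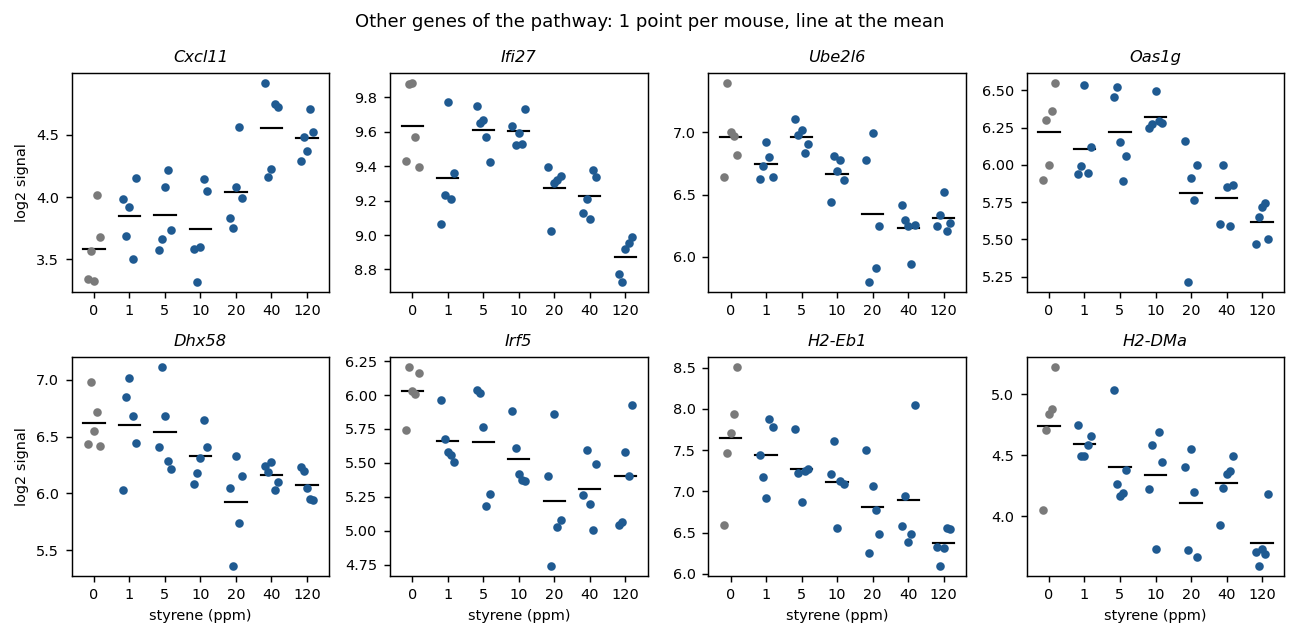
Log2 signal (y axis, scaled per gene) of 8 other genes of the pathway against styrene concentration (x axis, 0 is air, groups evenly spaced); each point is 1 mouse (grey for air, blue for styrene) and each line a group mean. Cxcl11 rises from a mean of 3.59 in air to 4.47 at 120 ppm, while the other 7 genes are lower at 120 ppm than in air.

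Class I and class II genes were counted separately, and the difference between the counts was not tested. Of 11 other class I genes 0 passed at 120 ppm in limma, beside 7.99% of all genes lower and 11.2% higher. By the F test 4 (Calr, H2-Q10, Nlrc5 and Erap1) differed among the 7 groups, beside 21.5% of all genes. Calr, a chaperone of class I loading, was lower at 40 ppm by 0.37 ± 0.08 (adjusted p = 0.00307), and H2-Q10, a secreted liver class I molecule, differed by -0.17 ± 0.07 at 120 ppm (adjusted p = 0.06). Nlrc5, the class I transactivator, and Erap1, which trims peptides, had positive differences of 0.50 ± 0.24 and 0.49 ± 0.23 that did not pass there. Each of these 4 was called at 120 ppm in some of 19 alternative settings. H2-Q10 was called lower in 5 and Calr in 1, and Nlrc5 and Erap1 were called higher in 2 each.

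Of 10 other class II genes 8 were lower at 120 ppm, beside 7.99% of all genes, with a median over the 10 of -0.59. H2-Eb1, a class II beta chain, read 6.59, 7.47, 7.70, 7.94 and 8.51 in air and 6.33, 6.10, 6.31, 6.56 and 6.55 at 120 ppm. Every exposed mouse lay below the lowest air mouse by a narrow margin, and H2-Eb1 fell by 1.27 ± 0.28 (adjusted p = 0.00227 in limma). H2-DMa, part of the peptide exchanger of class II loading, fell by 0.96 ± 0.19 (adjusted p = 0.00092). Lgmn and Ifi30, a protease and a thiol reductase that prepare peptides in lysosomes, fell by 0.39 ± 0.09 and 0.37 ± 0.12, and the call for Ifi30 ended without air replicate 2, 4 or 5 or 120 ppm replicate 4 or 5.

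Markers of liver cell types moved beside these changes. Of 11 Kupffer cell markers 6 were lower at 120 ppm and 0 higher, beside 7.99% and 11.2% of all genes. The 6 included Clec4f (by 0.74 ± 0.14) and C1qa (by 0.68 ± 0.14). The mean level of the 11 ranged from 6.97 to 7.98 in air and from 6.50 to 7.12 at 120 ppm. Hepatocyte markers were bright, 9 of 10 having a mean of at least 5, and 2 (Cyp2e1 and Asgr1) rose at 120 ppm, by 0.21 ± 0.05 and 0.27 ± 0.08; both calls ended when arrays were centred on their medians. Of the 10 hepatocyte markers 4 had negative differences, down to -0.39, and none of these passed. Of 10 sinusoidal endothelial markers 2 (Cdh5 and Stab1) were lower. Markers of T and NK cells, B cells, dendritic cells and neutrophils were near the dim end, with 1 of 11, 0 of 7, 0 of 6 and 0 of 8 at a mean of 5 or more. In these lists 0, 3, 1 and 1 markers passed at 120 ppm, among them Cd22 and Cd79a (higher by 0.43 and 0.29), Itgae (lower by 0.53) and Prtn3, a neutrophil granule protease, which rose by 1.43 ± 0.14 (adjusted p = 1.45e-07 in limma). The calls for Cd22, Cd79a, Itgae, Cdh5 and Stab1 each ended in at least 1 alternative setting or without at least 1 mouse. Neither the dendritic cell nor the neutrophil list moved one way: 4 of 6 dendritic cell markers had positive differences, with a median of 0.13, and 3 of 8 neutrophil markers had negative ones, down to -0.91.

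Array measures moved with concentration as well. The median signal of an array rose from 3.503 in air to 3.598 at 120 ppm, and the gap between the 3′ and 5′ control probe sets for actin, a sign of RNA length, went from 0.48 in air to 0.72, 0.71 and 0.72 at the 3 highest concentrations. With arrays centred on their medians the members below air numbered 32, 30 and 28 of 33 at 20, 40 and 120 ppm, but centring also moved the share of all genes below air to 56.6%, 58.4% and 59.7%. The part of Kupffer cell markers and of these array measures in the members' falls was not tested.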

How the data were processed

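Liver RNA of 35 mice was labelled with an Affymetrix 3′ IVT kit and measured on 1 array per mouse, per the labels' protocols. The deposited table holds the authors' normalized values on a log scale, taken as log2 from their range of 1.74 to 14.23; RMA and Partek are named in the submitters' processing notes, with no versions or settings. A 3′ array with summarised probe sets compresses changes of dim genes. Of 45141 probe sets, 104 controls were left out and 45037 tested; 28898 named 1 gene (17097 genes), 551 several and 15588 none.

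The fit used limma 3.58.1 in R 4.3.3 (with data.table, 1.17.8): 7 group means, lmFit and eBayes with 28 residual degrees of freedom, each concentration against air, 120 against 40 ppm, the F test, and a linear term in log2(ppm + 1). Benjamini-Hochberg adjustment ran over the 45037 probe sets, and calls were made at an adjusted p under 0.05. Intervals of the form a ± b are standard errors unless marked SD. Mice were grouped by labelled concentration. Number of arrays limits the precision.

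Named genes were all measured members, up to 4 genes of each pathway list that pass the F test, by its p-value,, and up to 2 of each marker list at 120 ppm. The members and lists were chosen with earlier results of these data known. Alternatives covered median centring, another quantile normalization, a brightness minimum of 5, array weights, an intensity-dependent prior, the mean over probe sets, the 2 groups alone, other dose scales, a replicate block and leaving out mice. The script was tested on simulated data. Of 50 simulated falls of 0.5 on the log2 scale at 120 ppm 40% were called, and of 50 falls of 1, 92%. A modest difference that did not pass is therefore not shown to be absent.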

Additional observations from a re-analysis of the deposited data

Results flagged for a closer look

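Single mice stood far from the others of their group in 12 of 231 member and group combinations, by the gap to the nearest mouse relative to the range of the group. Chance alone marks about 1 in 20 such groups. In the air group, replicate 5 was high for Cxcl9 (8.57) and Igtp (8.88), and replicate 1 was low for Irf9 (7.05). At 120 ppm, replicate 1 was low for Irf1 (6.39), replicate 3 was high for Oasl2 (3.81) and replicate 4 was low for Psmb9 (6.93). At 20 ppm replicate 2 was low for Oasl2 (3.36). At 10 ppm replicate 2 was high for Irf8 (5.58) and low for Ifih1 (3.80). At 5 ppm replicate 2 was high for Usp18 (6.94) and replicate 3 low for Cxcl10 (3.61). At 1 ppm replicate 4 was low for Parp14 (4.81).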

How the results depend on the processing

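In the settings run, 0 members were called higher than air, and 0 passed at 1, 5 or 10 ppm or between 120 and 40 ppm. The count of lower members at 120 ppm was 11, with 7 to 13 when 1 mouse was left out; the F test count of 9 ranged from 7 to 11 and the slope count of 11 from 11 to 12. Across the other settings the 120 ppm count was 9 to 14, the F test count 9 to 13 and the slope count 9 to 16, highest with centring for the F test and with repeated quantile normalization for the others. At 40 ppm the count of 5 became 9 with arrays centred on their medians, 10 after quantile normalization was repeated, 8 under array weights, and 2 to 7 without 1 mouse. At 20 ppm the count of 2 became 5 with a brightness minimum of 5, 4 with array weights, 1 with the mean over probe sets, 0 with only the groups compared, and 0 to 4 without 1 mouse. Without air replicate 5 and 20 ppm replicate 2, a setting chosen after seeing the data, it was 0 at 20 ppm and 3 at 40 ppm. The causes were not tested.

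Replicate numbers do not pair the mice: same-numbered air and 120 ppm mice correlated between -0.04 and 0.18 in their deviations, and 1 of 5 correlated best with its own number. With the replicate block the lower counts were 2, 6 and 11 at 20, 40 and 120 ppm.

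Values at 120 ppm that changed sign were all of genes with no call, except Ifnar2 (-0.115 with the mean over probe sets). Under that setting Rsad2 was 0.0101, Xaf1 0.0058, Parp14 0.0049 and Ciita 0.0723. Irf1 was -0.0517 with centring, Ifit1 -0.0639 with repeated quantile normalization and Parp14 0.0108 with array weights. Leaving out 1 mouse moved Irf1 between -0.0592 and 0.269, Parp14 between -0.106 and 0.131, Ciita between -0.0827 and 0.0454, Psmb10 between -0.0814 and 0.00994, Gbp3 between -0.18 and 0.0859, Oas2 between -0.103 and 0.00865, and Irgm1 between -0.152 and 0.0167. Without air replicate 5 and 20 ppm replicate 2, Oas2 (0.00865), Parp14 (0.131), Psmb10 (0.00477), Gbp3 (0.0859) and Irgm1 (0.0167) turned positive. Of the members, 10 had a mean under 5, where background limits what a change can show.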
